A study of Rattus norvegicus with 15 samples.

Results

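Glycolysis and its control were followed through 10 genes in the epididymal fat, the visceral depot beside the testis, of male Long-Evans rats made obese by diet and of lean controls. The genes were Slc2a1, Hk1, Hk2, Pfkl, Pfkp, Pfkfb3, Aldoa, Pgk1, Eno1 and Ldha. They are listed members of the pathway, chosen with earlier results of these data known. A probe set, the group of short probes that measures 1 transcript, was taken where the platform annotation gave one of these genes as its single gene. That rule found 18 of 31099 probe sets, of which 15 were ordinary and 3 were the array's own hexokinase controls, assigned to Hk1. The annotation named 14217 genes in this way. Of the 15 ordinary probe sets, 13 lay above the filter on low signals, and each of the 10 genes had at least 1 of them.

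The diet-induced obese group held 7 rats on a high fat, high sucrose diet from weaning, and the lean group held 8 rats on regular chow. Both groups came from 1 private colony and were shipped at 14 weeks of age, housed singly with free access to food, and killed fed at 26 weeks of age. Total RNA of each rat was hybridised to 1 Affymetrix RAE230_2 array. Diet and obesity differ together between these groups and cannot be told apart.

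Glycolysis breaks glucose down to pyruvate in the cytosol, yielding ATP without oxygen. Slc2a1 (GLUT1) carries glucose into the cell independently of insulin, hexokinases trap it as glucose 6-phosphate, and phosphofructokinase commits it to the pathway. Pfkfb3 makes the regulatory form of fructose bisphosphate, a strong activator of phosphofructokinase, while Ldha turns pyruvate into lactate. In fat cells glycolysis also supplies the glycerol backbone of triglyceride and the carbon for fatty acid synthesis, and several of these genes are known targets of the hypoxia-inducible factors.

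Obese rat 1 and lean rat 7 gave close to identical arrays: their log2 values correlated at r = 0.986 over the 18625 probe sets above the filter, with a median absolute difference of 0.090, against 0.960 and 0.19 for the next closest pair. The labels do not say which group is right for either. Each comparison is therefore given without this pair (13 arrays, 6 obese and 7 lean) and with all 15 arrays. All 13 measured adipocyte markers lay above the filter, while both measured epididymal epithelium markers and 7 of 11 skeletal muscle markers, Acta1 and Myh4 among them, lay below it. The other skeletal muscle markers, Myh1, Atp2a1, Tnnt3 and Ckm, lay above the filter. Myh1 had a mean signal of 13598 in obese and 15314 in lean rats (13 arrays). The values are MAS5 signals on a linear scale, scaled to a trimmed mean between 1500.34 and 1500.42 on every array, and the number of arrays limits the precision.

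Without the pair, Pfkfb3 and Eno1 were higher in obese fat and the other 8 genes did not pass the test. Of the 10 genes, 2 passed at an adjusted p of 0.05, both higher, where 0.725% of all probe sets were called higher and 1.01% were called in either direction (limma, Benjamini-Hochberg over 18625 probe sets). With all 15 arrays 0 of the 10 passed, and 0% of all probe sets did. At an unadjusted p under 0.05, 4 genes (Pfkfb3, Eno1, Pfkp and Ldha) were higher in both sets of arrays, against 7.59% of probe sets with 13 arrays and 6.74% with 15. The log2 fold change was above 0 for 9 of the 10 genes in both, against 42.2% of all probe sets with 13 arrays and 42.5% with 15. Its median over the 10 genes was 0.23 with 13 arrays and 0.17 with 15, against -0.043 and -0.038 over all probe sets. The median over all probe sets depended on signal: with 15 arrays it was -0.058 with no filter and -0.0081 with the filter at the 60th percentile. The filter stood at a mean log2 value of 9.25, and the 10 genes ran from 9.57 for Hk2 to 15.2 for Aldoa. The shares over all probe sets are thus not matched to these genes in signal. Since the 10 genes were chosen with earlier results of these data known, their counts describe the chosen genes and were not tested as a set. In bulk tissue, more RNA per cell and more cells of a type that holds the RNA cannot be told apart.

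**Figure D1:**
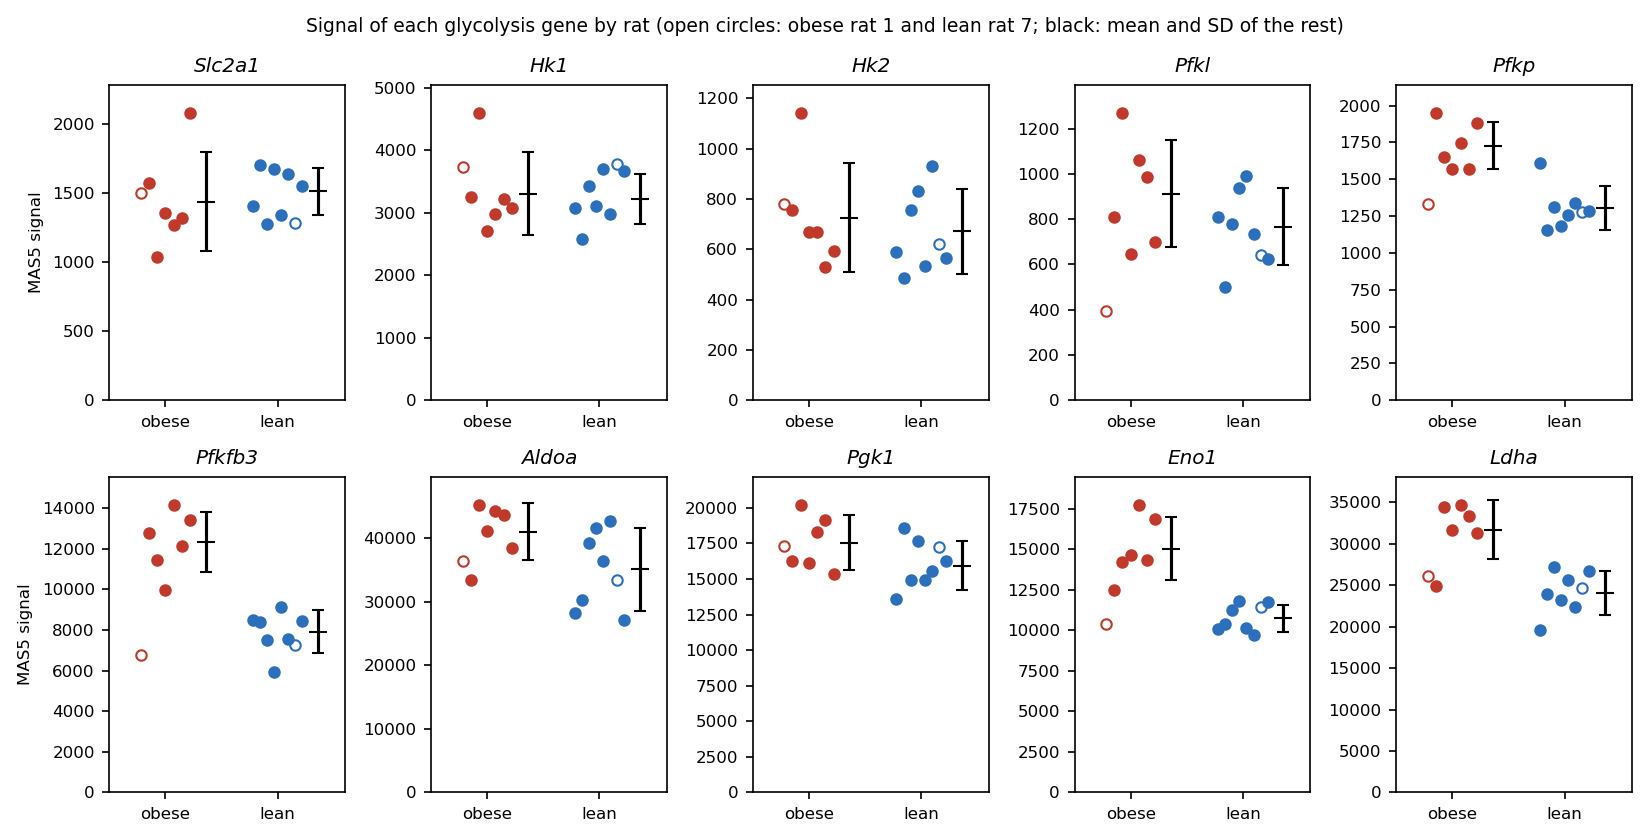
MAS5 signal (vertical axis, from 0) of the 10 genes, each by its brightest probe set, in 7 obese and 8 lean rats; each point is 1 rat, open circles are obese rat 1 and lean rat 7, and black marks are the mean and SD of the other rats. For Pfkfb3 and Eno1 the filled obese points all lie above every lean point.

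Promoter sequences are shown for the 4 genes with an unadjusted p under 0.05 and for Slc2a1, whose promoter also holds the motif but whose signal did not pass. They run from 250 bases before to 50 after an annotated start, on the gene's strand, from RefSeq on build GRCr8. Capitals mark the core of the hypoxia response element, ACGTG or GCGTG, or its complement CACGT or CACGC. The coordinates are chr17:71944683-71944982 for Pfkfb3, chr5:166002617-166002916 and chr5:166003111-166003410 for the first and second entries of Eno1, chr17:68639563-68639862 for Pfkp, chr1:106507842-106508141 for Ldha and chr5:138002272-138002571 for Slc2a1, all on the plus strand.
Pfkfb3: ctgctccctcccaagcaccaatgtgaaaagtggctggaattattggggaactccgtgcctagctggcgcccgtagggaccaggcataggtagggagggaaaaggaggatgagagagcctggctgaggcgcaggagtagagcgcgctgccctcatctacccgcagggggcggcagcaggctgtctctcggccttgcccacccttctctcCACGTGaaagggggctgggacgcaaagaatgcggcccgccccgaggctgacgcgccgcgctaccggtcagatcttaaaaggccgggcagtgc
Eno1 (first entry): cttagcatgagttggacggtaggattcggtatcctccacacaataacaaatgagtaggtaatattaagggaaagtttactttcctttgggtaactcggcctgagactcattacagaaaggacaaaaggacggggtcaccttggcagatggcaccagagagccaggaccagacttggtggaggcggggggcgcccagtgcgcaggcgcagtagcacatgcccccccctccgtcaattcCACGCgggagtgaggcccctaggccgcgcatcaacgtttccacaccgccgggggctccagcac
Eno1 (second entry): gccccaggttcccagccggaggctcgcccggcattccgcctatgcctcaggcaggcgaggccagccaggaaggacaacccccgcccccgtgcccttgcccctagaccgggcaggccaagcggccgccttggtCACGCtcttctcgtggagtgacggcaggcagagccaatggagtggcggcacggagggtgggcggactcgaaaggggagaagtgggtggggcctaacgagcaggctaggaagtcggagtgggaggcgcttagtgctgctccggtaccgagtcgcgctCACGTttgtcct
Pfkp: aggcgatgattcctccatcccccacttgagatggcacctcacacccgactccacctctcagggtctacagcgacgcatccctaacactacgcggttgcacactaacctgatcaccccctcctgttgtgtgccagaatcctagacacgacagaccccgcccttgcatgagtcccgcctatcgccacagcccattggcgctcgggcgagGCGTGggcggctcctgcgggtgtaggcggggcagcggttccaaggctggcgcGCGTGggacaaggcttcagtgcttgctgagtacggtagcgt
Ldha: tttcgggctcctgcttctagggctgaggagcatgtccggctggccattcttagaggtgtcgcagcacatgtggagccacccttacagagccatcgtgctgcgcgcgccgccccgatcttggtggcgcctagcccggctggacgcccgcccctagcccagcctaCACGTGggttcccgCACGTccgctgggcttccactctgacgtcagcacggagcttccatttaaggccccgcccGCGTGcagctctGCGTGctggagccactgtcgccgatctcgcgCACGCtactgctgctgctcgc
Slc2a1: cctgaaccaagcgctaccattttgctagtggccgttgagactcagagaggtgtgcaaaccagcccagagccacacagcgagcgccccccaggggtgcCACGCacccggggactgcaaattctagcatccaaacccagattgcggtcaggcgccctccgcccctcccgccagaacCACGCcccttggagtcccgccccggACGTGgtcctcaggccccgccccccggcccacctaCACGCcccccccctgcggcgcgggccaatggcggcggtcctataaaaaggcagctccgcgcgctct

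The core stood 6 times in the Ldha promoter, 4 times in that of Slc2a1, and 2 times each in those of Pfkfb3 and Pfkp. Eno1 held it 1 time in the first entry and 2 times in the second. The palindrome CACGTG, an E-box, holds the core once on each strand and so counts as 2 overlapping matches: it lies 42 bases before the start of Pfkfb3 and 87 before that of Ldha. Over all 13 promoter entries of the genes, 9 (69.2%) held at least 1 core on either strand, against 41.6% of the 33469 promoters of the same length in the table. The E-box was in 2 of 13 entries (15.4%), against 6.42% of all promoters, and the GC box GGGCGG in 8 of 13 (61.5%), against 33.1%. By gene, 8 of 9 had the core in an entry, and Hk2 had none of the 3 motifs in this window. Hk1, Aldoa and Eno1 had several entries, so the count by gene cannot be set against the 41.6%, a share of entries. Pgk1 was not matched. The core stood in called and uncalled genes, Slc2a1, Hk1, Pfkl and Aldoa among the uncalled. With 8 of 9 genes holding it, its presence could not tell called from uncalled genes, and a part of the hypoxia-inducible factors was not tested.

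Glucose entry and trapping showed no call. The Slc2a1 (Entrez gene 24778) signal had a lowest, median and highest value of 1034.2, 1337.3 and 2079.3 in the 6 obese rats, against 1277.7, 1552.8 and 1705.3 in the 7 lean rats. The groups overlapped, and obese rat 8 was the highest and obese rat 3 the lowest of all arrays. Its log2 fold change, obese over lean on the log2(signal + 79.9) scale, was -0.093 (95% interval -0.39 to 0.20; limma adjusted p = 0.76), and with 15 arrays -0.053 (-0.31 to 0.21; limma adjusted p = 0.867). Centring each array on its median turned the sign of this value, to 0.023 with 13 arrays.

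Hexokinase 1 (Hk1, 25058), the isoform of most tissues, ran at 2716.5, 3149.15 and 4595.9 (lowest, median, highest) in 6 obese rats, against 2587.7, 3109.9 and 3700.3 in 7 lean rats. The obese rats lay within the lean range except obese rat 3, which was the highest of all arrays. The log2 fold change was 0.026 (95% interval -0.24 to 0.29, limma adjusted p = 0.937), and 0.024 (limma adjusted p = 0.941) with 15 arrays. A dimmer probe set of Hk1 had a value of the other sign: it averaged 680 ± 252 in obese rats and 868.5 ± 74.0 in lean rats (SD; n = 6 obese, n = 7 lean), with a log2 fold change of -0.38 (95% interval -0.75 to -0.013; limma adjusted p = 0.263). Obese rats 2, 6, 7 and 8, at 760.7, 522.3, 385.9 and 505.2, lay below all lean rats on it, as did obese rat 1 at 510.1, while obese rats 3 and 5 had 1052.6 and 850.6. The lowest lean rat, at 766.5, was close to obese rat 2. With 15 arrays its log2 fold change was -0.43 (limma adjusted p = 0.21). The mean over both probe sets gave Hk1 a log2 fold change of -0.18 with 13 arrays (limma adjusted p = 0.494).

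The 3 hexokinase control probe sets, placed along the Hk1 transcript, were left out of the fit as controls. The middle and 5 prime ones lay below the filter's level, and the 3 prime one above it. Signals were 626 ± 128 in obese and 574.1 ± 92.7 in lean rats at the 3 prime end, 230 ± 171 and 168.7 ± 38.9 in the middle, and 38.9 ± 24.5 and 55.9 ± 23.7 at the 5 prime end (SD, n = 6 obese and n = 7 lean). The middle probe set stood highest in obese rat 3 at 573.7, with lean rat 7 at 512.7 and obese rat 1 at 320.7. For Hk1 the 3 prime minus 5 prime control value, on the log2(signal + 79.9) scale, was 2.58 ± 0.39 in obese and 2.27 ± 0.42 in lean rats (SD, n = 6 and n = 7; exact two-sided permutation p = 0.206, adjusted p = 0.206 over 4 array measures). Both mean 5 prime signals lay below the added 79.9. The value therefore depends largely on that constant and understates the log2 ratio of the signals themselves.

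Hexokinase 2 (Hk2, 25059), the isoform of insulin-sensitive tissues, had 530.0, 668.45 and 1141.0 (lowest, median, highest) in 6 obese rats, against 485.6, 588.7 and 930.0 in 7 lean rats. The ranges overlapped almost entirely. Its log2 fold change was 0.095 (95% interval -0.27 to 0.46; limma adjusted p = 0.811) with 13 arrays and 0.12 (-0.20 to 0.44; limma adjusted p = 0.739) with 15. Without obese rat 3, the highest for Hk1 and Hk2, the 13-array value was -0.071 for Hk1 and -0.032 for Hk2.

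At the phosphofructokinase step the kinase that makes its activator rose. Pfkfb3 (117276) had signals of 12783.5, 11418.2, 9987.1, 14125.8, 12141.0 and 13394.4 in obese rats 2, 3, 5, 6, 7 and 8. Against these stood 8482.3, 8374.7, 7495.8, 5914.7, 9131.0, 7572.8 and 8431.3 in lean rats 1, 2, 3, 4, 5, 6 and 8. Every one of these obese rats exceeded every lean rat, as was so for 0.918% of the 18625 probe sets. Pfkfb3 averaged 12308 ± 1478 in obese rats and 7915 ± 1047 in lean rats (SD; n = 6 obese, n = 7 lean), for a log2 fold change of 0.63 ± 0.12 (SE, 95% interval 0.39 to 0.88, adjusted p = 0.0234 by limma). Obese rat 1, at 6754.1, and lean rat 7, at 7253.5, both lay within the range of the other lean rats. With them in, the log2 fold change was 0.53 ± 0.14 (SE, adjusted p = 0.116 by limma).

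Leaving out obese rat 6, 7 or 8 or lean rat 6 as well ended the Pfkfb3 call, with log2 fold changes from 0.59 to 0.64 and limma adjusted p from 0.0527 to 0.059. A second, dimmer probe set averaged 1266 ± 374 in obese rats and 956 ± 175 in lean rats (SD; n = 6 obese, n = 7 lean), and its log2 fold change of 0.35 (95% interval -0.025 to 0.72; limma adjusted p = 0.314) did not pass. Obese rats 3, 6, 7 and 8 lay above all lean rats on it, and obese rats 2 and 5 within the lean range. With 15 arrays the log2 fold change of this probe set was 0.28 (limma adjusted p = 0.435). The third averaged 146.1 ± 53.0 in obese and 166 ± 47.4 in lean rats (SD, n = 6 and n = 7) and lay below the filter. The mean over the probe sets above the filter gave 0.49 (limma adjusted p = 0.0528).

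Pfkp (60416), the platelet-type phosphofructokinase, had 1566.9, 1699.9 and 1948.1 (lowest, median, highest) in 6 obese rats, against 1155.0, 1285.6 and 1610.2 in 7 lean rats. Only lean rat 1 reached the obese range, which lay above the other 6 lean rats. The log2 fold change was 0.39 ± 0.099 (SE, 95% interval 0.18 to 0.60, adjusted p = 0.0738 by limma), short of the threshold. It was 0.34 ± 0.095 (SE, adjusted p = 0.132 by limma) with 15 arrays, where obese rat 1 had 1330.1 and lay within the lean range. Without lean rat 1, the 13-array value was 0.43 and passed (limma adjusted p = 0.0475).

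Pfkl (25741), the liver-type phosphofructokinase, had 646.6, 899.5 and 1268.4 (lowest, median, highest) in 6 obese rats, against 498.7, 780.5 and 989.4 in 7 lean rats. The groups overlapped, with obese rats 3 and 6 alone above all lean rats. The log2 fold change was 0.22 (95% interval -0.14 to 0.58; limma adjusted p = 0.524), and 0.099 (-0.30 to 0.50; limma adjusted p = 0.837) with 15 arrays. Obese rat 1 had 392.6, the lowest of all 15 arrays, against 640.2 in lean rat 7, the largest log2 difference between these near-identical arrays among the 10 genes, at 0.61.

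In the lower part of the pathway, Eno1 rose. Eno1 (24333) is enolase, which makes phosphoenolpyruvate. Its signals in obese rats 2, 3, 5, 6, 7 and 8 were 12476.7, 14238.7, 14653.8, 17713.3, 14354.5 and 16886.9. Lean rats 1, 2, 3, 4, 5, 6 and 8 had 10089.1, 10368.3, 11237.4, 11809.2, 10162.7, 9716.4 and 11767.9. Here too the 6 obese rats exceeded every one of the 7 lean rats, by a narrow gap between obese rat 2 and lean rat 4. Eno1 averaged 15054 ± 1918 in obese rats and 10736 ± 855 in lean rats (SD; n = 6 obese, n = 7 lean), for a log2 fold change of 0.48 ± 0.10 (SE, 95% interval 0.26 to 0.70, adjusted p = 0.0421 by limma).

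With all 15 arrays Eno1 had 0.39 ± 0.11 (SE, adjusted p = 0.122 by limma), where obese rat 1, at 10376.9, lay among the lean rats and lean rat 7 had 11426.5. Leaving out obese rat 5, 6, 7 or 8 or lean rat 1, 2, 3, 4, 5 or 6 as well ended the 13-array call, with log2 fold changes from 0.43 to 0.50 and limma adjusted p from 0.0576 to 0.0966. Quantile normalization gave 0.38 (limma adjusted p = 0.0747).

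Ldha (24533), the lactate dehydrogenase subunit of lactate-producing tissues, had 24948.3, 32500.0 and 34643.5 (lowest, median, highest) in 6 obese rats, against 19628.7, 23896.0 and 27234.3 in 7 lean rats. Obese rat 2 alone lay within the lean range, and the other 5 obese rats above it. The log2 fold change was 0.39 ± 0.11 (SE, 95% interval 0.16 to 0.63, adjusted p = 0.092 by limma), short of the threshold, and 0.35 ± 0.10 (SE, adjusted p = 0.133 by limma) with 15 arrays. Relative to each array's median it was 0.51 and passed (limma adjusted p = 0.0419).

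Aldoa (24189), the aldolase that splits fructose bisphosphate, had 33421.0, 42429.8 and 45165.5 (lowest, median, highest) in 6 obese rats, against 27172.5, 36371.8 and 42717.6 in 7 lean rats. The lean rats spread widely and overlapped the obese ones. Its log2 fold change was 0.24 (95% interval -0.039 to 0.52; limma adjusted p = 0.354), and 0.22 (-0.022 to 0.47; limma adjusted p = 0.364) with 15 arrays. Pgk1 (24644), which makes the first ATP of the pathway, had 15324.9, 17280.2 and 20162.3 in obese rats, against 13622.3, 15542.2 and 18602.1 in lean rats. These ranges overlapped as well. The log2 fold change of Pgk1 was 0.14 (95% interval -0.083 to 0.36, limma adjusted p = 0.516), and 0.12 (limma adjusted p = 0.544) with 15 arrays.

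A second, dimmer Pgk1 probe set averaged 9612 ± 433 in obese rats and 8431 ± 736 in lean rats (SD; n = 6 obese, n = 7 lean), with a log2 fold change of 0.19 (95% interval 0.0044 to 0.38; limma adjusted p = 0.269). Lean rats 2 and 8, at 9561.2 and 9219.8, lay within the obese range and the other 5 below it. With 15 arrays the log2 fold change of this probe set was 0.17 (limma adjusted p = 0.301). The third averaged 74.1 ± 33.7 in obese and 116.1 ± 73.6 in lean rats (SD, n = 6 and n = 7), under the filter.

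**Figure D2:**
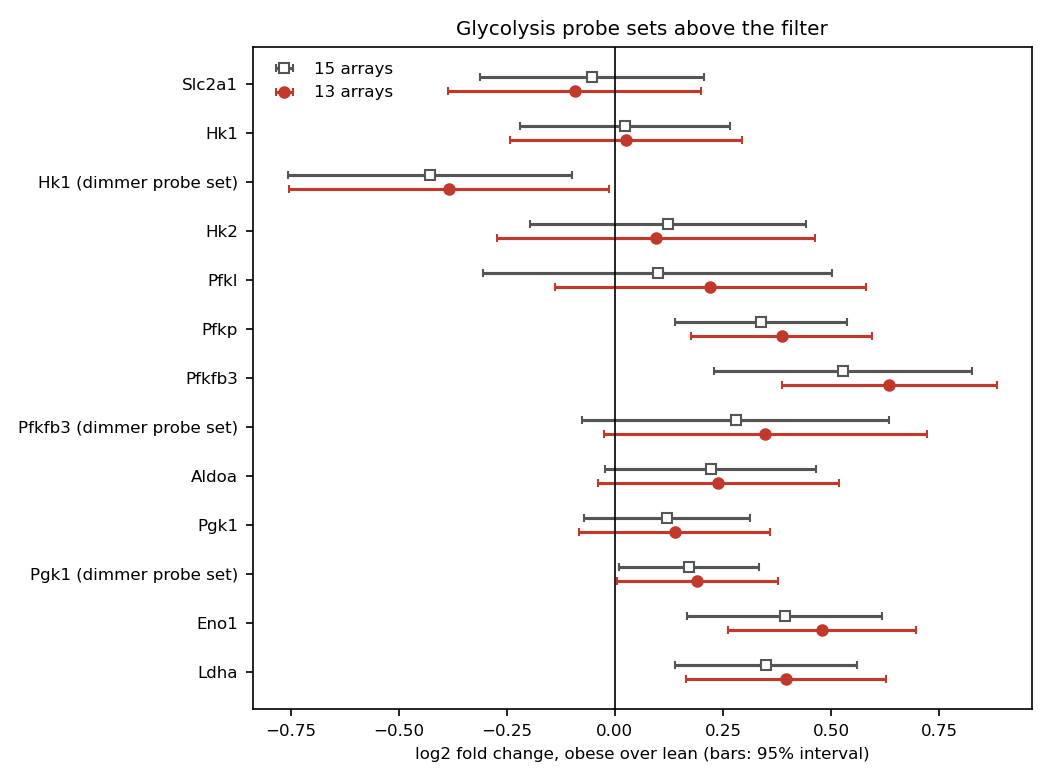
Log2 fold change, obese over lean (horizontal axis), of the 13 ordinary probe sets above the filter, with 95% intervals from limma; open squares are all 15 arrays and red circles the 13 arrays without the near-identical pair. The 13-array values run from -0.38 for the dimmer Hk1 probe set to 0.63 for Pfkfb3.

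Across rats the genes did not share 1 order. Obese rat 3 had the highest signal of the 15 for 5 of the 10 genes (Hk1, Hk2, Pfkl, Aldoa and Pgk1) and the lowest for Slc2a1, and obese rat 6 the highest for Pfkfb3, Eno1 and Ldha. Obese rat 2 was highest for Pfkp and obese rat 8 for Slc2a1. The mean over the 10 genes of each rat's log2 deviation from the 15-array mean ran from 0.020 in obese rat 5 to 0.30 in obese rat 3 among the 6 obese rats, against -0.21 in lean rat 2 to -0.029 in lean rat 4 among the 7 lean rats. It was -0.13 in obese rat 1 and -0.12 in lean rat 7, both within the lean range. These means describe the chosen genes and were not tested.

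**Figure D3:**
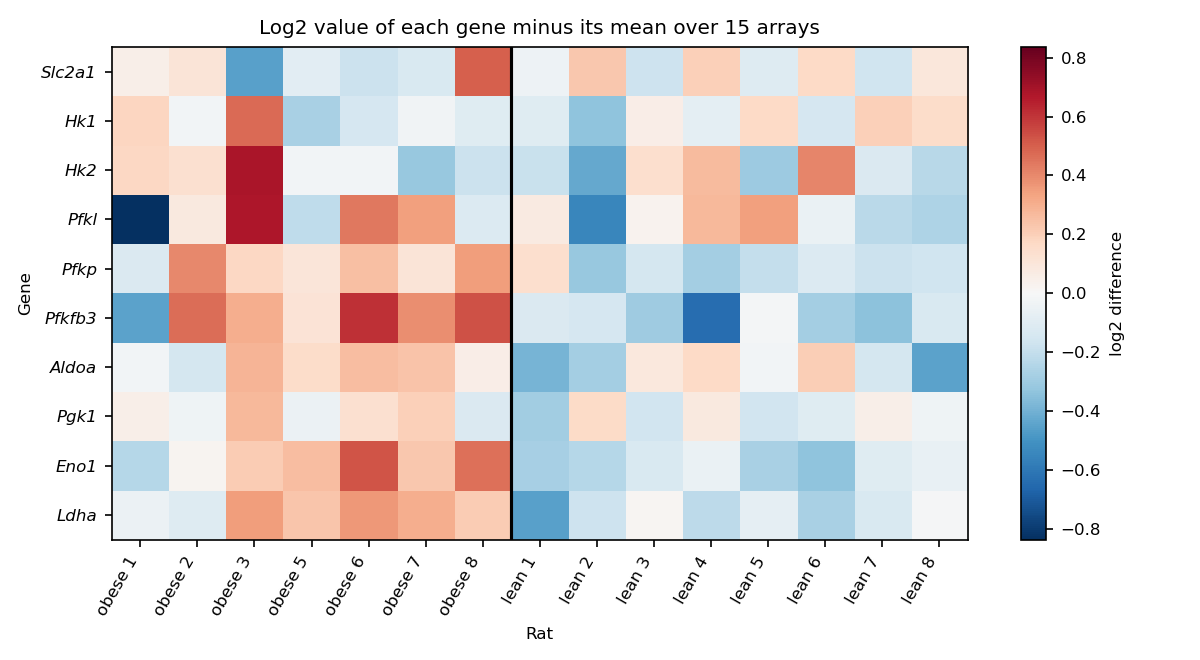
Log2 value of each gene (rows) in each rat (columns, obese left of the black line, lean right) minus the gene's mean over 15 arrays; red is above and blue below that mean. Obese rat 3 is darkest for Hk2 and Pfkl, obese rat 6 for Pfkfb3 and Eno1, and obese rat 1 is lowest for Pfkl.

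The rest of the pathway showed no call. Of 31 other genes of glycolysis and lactate transport, 24 had a probe set naming them alone and 16 lay above the filter. With 13 arrays 0 of the 16 passed in either direction, against 1.01% of all probe sets, and 1 had an unadjusted p under 0.05, against 17.8% (limma). The log2 fold change was above 0 for 9, against 42.2% of all probe sets. Its median was 0.045, against -0.043 over all probe sets. With 15 arrays 0 passed, against 0% of all probe sets, and 1 had an unadjusted p under 0.05, against 15.6% (limma). The median was 0.043, against -0.038 over all probe sets. Relative to each array's median, 11 of the 16 were above 0 with 13 arrays, where the median over all probe sets was itself 0.073. Among those with a positive value, glucose phosphate isomerase (Gpi) had a signal of 7431 in obese and 6164 in lean rats and a log2 fold change of 0.27 ± 0.10 (SE, adjusted p = 0.183 by limma). The neuronal enolase Eno2 had 0.25 ± 0.13 and the glucose transporter Slc2a3 0.12 ± 0.11 (SE, adjusted p = 0.32 and 0.604 by limma).

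Other forms of the called kinase had values of the other sign. Pfkfb1 had -0.24 ± 0.12 and Pfkfb2 -0.23 ± 0.16 on the same log2 scale (SE, adjusted p = 0.297 and 0.469 by limma), and neither passed. Slc2a4 (GLUT4), the insulin-dependent transporter of fat and muscle, had -0.20 ± 0.14 (SE, adjusted p = 0.476 by limma). Pgam1, which follows Pgk1 in the pathway, had 29360 in obese and 29197 in lean rats and a log2 fold change of 0.0066 (95% interval -0.18 to 0.19; limma adjusted p = 0.98), a gene named after its values were seen.

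Genes of the hypoxia response outside glycolysis were set beside these, 17 above the filter of 22 listed. With 13 arrays 0 passed, against 1.01% of all probe sets, and 4 had an unadjusted p under 0.05, against 17.8% (limma). Above 0 were 10, against 42.2%, with a median of 0.0057 against -0.043 over all probe sets. Relative to each array's median 14 were above 0 and 1 (Hmox1) passed, where 389 of all 18625 probe sets passed. That centring also moved the median over all probe sets, to 0.073. The list's median stood 0.048 above it, a gap that centring cannot change, since it shifts every fold change by the same amount. Under quantile normalization 7 were above 0. Heme oxygenase (Hmox1) had a signal of 4782 in obese and 2431 in lean rats and a log2 fold change of 0.86 ± 0.23 (SE, adjusted p = 0.0835 by limma). Ddit4, a brake on the growth kinase mTOR, had 0.41 ± 0.15, and the mitophagy gene Bnip3 had -0.27 ± 0.11 (SE, adjusted p = 0.166 and 0.208 by limma). Hif1a, the oxygen-regulated factor itself, had -0.079 ± 0.11 and Vegfa -0.074 ± 0.095 (SE, adjusted p = 0.742 and 0.725 by limma), both named after their values were seen. With 15 arrays 0 of the 17 passed, against 0% of all probe sets, and 9 were above 0, against 42.5%. The list's median was then 0.0020, against -0.038 over all probe sets.

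**Figure D4:**
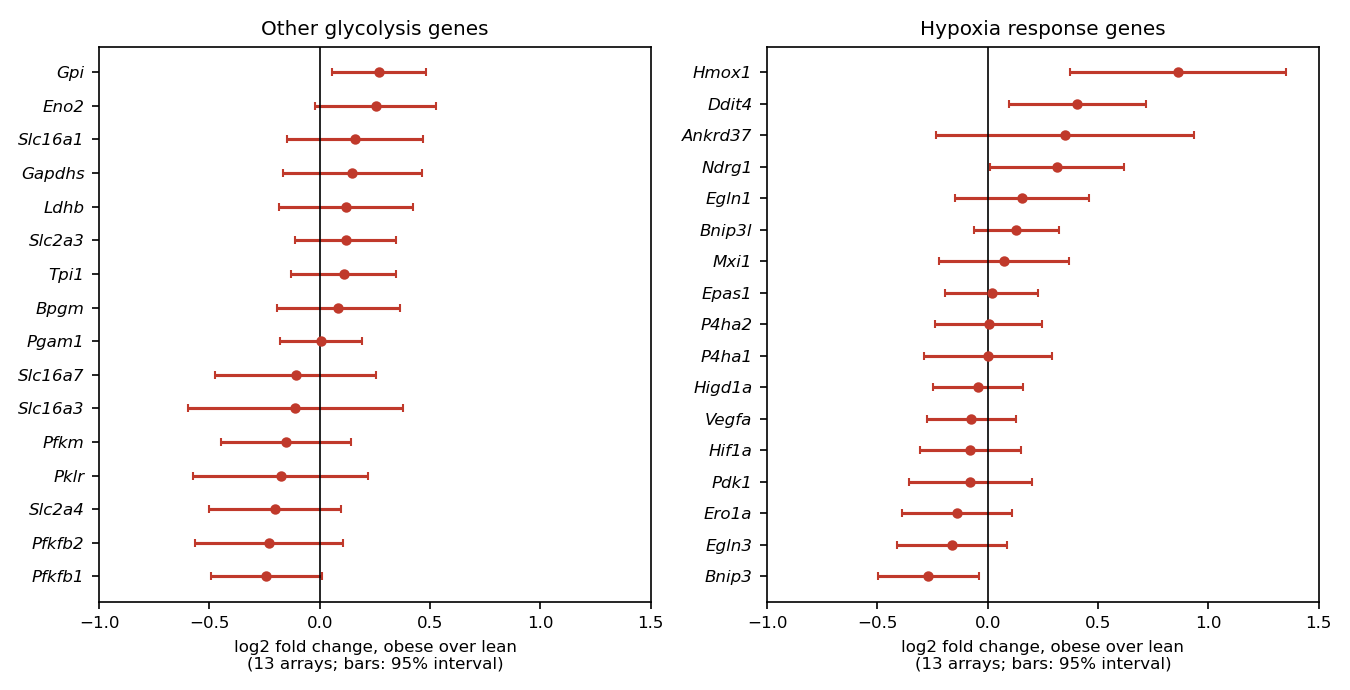
Log2 fold change, obese over lean, with 95% intervals from limma and 13 arrays, of 16 other glycolysis genes (left) and 17 hypoxia response genes (right), each ordered by its value. No gene in either panel passed after adjustment, and Gpi and Hmox1 stand at the top.

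Markers of macrophages, cells that also use glycolysis, moved with Pfkfb3 and Eno1. All 22 measured of 25 listed macrophage markers had a log2 fold change above 0 with 13 arrays, 9 of them passed as higher, against 0.725% of all probe sets, and the median was 0.72 (limma). With 15 arrays 0 passed and the median was 0.62. With the Gapdh 3 prime over 5 prime ratio, a measure of RNA degradation, as a covariate, 21 of the 22 were above 0 with 13 arrays, 1 (Gpnmb) passed and the median was 0.46. Their summed signal ran from 242754 to 492316 in the 6 obese rats, against 152795 to 230837 in the 7 lean rats, and was 193213 in obese rat 1. Gpnmb, Lgals3 and Spp1, those of smallest p, had log2 fold changes of 2.07, 0.90 and 1.77 (limma adjusted p = 0.00326, 0.0199 and 0.0269). Adgre1, Cd14 and Ctss, those of largest p, had 0.24, 0.13 and 0.056 (limma adjusted p = 0.614, 0.635 and 0.886). They were named after their values were seen. Obese rat 6, highest for Pfkfb3, Eno1 and Ldha, also had the highest mean deviation of macrophage markers, at 1.19. Obese rat 3, highest for 5 glycolysis genes, had 0.052 on that measure, just under the highest lean rat, lean rat 1, at 0.058. The part of macrophages in the Pfkfb3 and Eno1 results was not tested.

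On the values as deposited, no gene of the other marker lists passed, with 13 arrays or with 15. Median log2 fold changes with 13 arrays were -0.054 over 13 adipocyte markers, 0.12 over 9 endothelial markers, -0.34 over 9 mesothelial markers, 0.11 over 3 red blood cell markers and -0.096 over 4 skeletal muscle markers. Relative to each array's median, 10 of the 13 adipocyte markers were above 0 with 13 arrays. Their median turned to 0.062, against 0.073 over all probe sets on that scale. Only 1 passed, the hormone gene Lep (leptin) at 0.90 (limma adjusted p = 0.0433). With the Gapdh ratio as a covariate the median was 0.12 over the adipocyte markers and -0.095 over the mesothelial markers.

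Measures of RNA quality and scaling stand beside these calls, and none passed its adjusted test. For Gapdh the log2 ratio of 3 prime over 5 prime control signal, a sign of RNA degradation, was 0.72 ± 0.27 in obese and 1.04 ± 0.28 in lean rats (SD, n = 6 and n = 7; exact two-sided permutation p = 0.0594, adjusted p = 0.0793 over 4 array measures). The Actb ratio was 1.36 ± 0.40 in obese and 1.76 ± 0.23 in lean rats (SD, n = 6 and n = 7; exact two-sided permutation p = 0.0513, adjusted p = 0.0793). With the Gapdh ratio as a covariate Pfkfb3 had 0.48 (limma adjusted p = 0.125) and Eno1 0.41 (limma adjusted p = 0.166), and neither passed. The median log2 signal of all probe sets was 9.68 ± 0.090 in obese and 9.80 ± 0.064 in lean rats (SD, n = 6 and n = 7; exact two-sided permutation p = 0.0227, adjusted p = 0.0793). After each array was centred on that median, fold changes over all probe sets had a log2 median of 0.073, against -0.043 as deposited. Relative to it Pfkp, Pfkfb3, Eno1 and Ldha passed, and all 10 genes were above 0. On that scale 389 of all 18625 probe sets passed, and most probe sets were above 0, their median being so. The median over the 10 genes stood 0.27 above that of all probe sets on both scales. Centring shifts every fold change by the same amount, so it cannot change this gap.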

How the data were processed

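The deposited intensity values are MAS5 signals on a linear scale, per the submitters' processing notes, with neither version nor background settings given in the sources used here. Each array's 2% trimmed mean was about 1500, so they were used as the authors scaled them. The labels and the series' design text differ on RNA input (6 and 5 micrograms) and on the extraction reagent. Values were put on the scale log2(signal + 79.9), 79.9 being the 10th percentile of all signals, which understates changes at low signal. After removal of 57 controls, a filter at the 40th percentile of the mean log2 value left 18625 probe sets. Groups were compared with limma 3.58.1 (lmFit and eBayes) in R 4.3.3, with Benjamini-Hochberg adjustment over all of them. Array measures had exact two-sided permutation tests. Low MAS5 signals are noisy, since mismatch signal is subtracted. Detection calls were not used here.

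Of the ordinary probe sets, 20826 named 1 gene in the platform annotation, 436 several and 9780 none; 20758 of those with 1 gene matched by Entrez ID to a current symbol. Each gene is represented by its brightest probe set. Named were the 10 members with every probe set; of the other glycolysis genes, any that passed and, per direction, the 3 of smallest p; and up to 3 genes of each marker and hypoxia list with the smallest p, given where a result turned on them. The members and lists were chosen with earlier results of these data known. Rat numbers name different animals and do not pair them: correlations of same-numbered rats' deviations ran from -0.11 to 0.24. Nothing in the labels says that the rats of a group came from separate litters or cages. Alternatives were other pseudocounts, filters, scalings and variance models, array weights, the rat number as a block, the Gapdh ratio as a covariate, averaging of a gene's probe sets and each rat left out.

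The limma fit was checked on simulated data that took means and spreads from these arrays, with 50 of 18625 probe sets changed by each of 4 sizes. At log2 changes of 0.5, 1 and 2 the share recovered was 34%, 92% and 98% with 13 arrays and 36%, 86% and 100% with 15. Plots used matplotlib 3.10.9 (Python 3.11.15).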

Additional observations from a re-analysis of the deposited data

Results flagged for a closer look

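The Pfkp signal of lean rat 1, at 1610.2, stood apart from the other 7 lean rats, which ran from 1155.0 to 1338.6. The gap took up 0.558 of the group's range on the log2 scale, above Dixon's critical value of 0.526 for 8 samples. It was the 1 case among 26 groups of member probe sets checked, and chance flags about 1 group in 20.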

How the results depend on the processing

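With 15 arrays, where 0 probe sets passed in limma and 2898 had an unadjusted p under 0.05, 3 passed with no filter, 49 with the filter at the 60th percentile and 8 with trend and robust; leaving out 1 rat gave 0 to 245, the highest without obese rat 1. No member passed in any of these except 3 (Pfkp, Pfkfb3 and Eno1) without obese rat 1, so the range over rats left out was 0 to 3. With 13 arrays, where 189 probe sets passed, the count was 124 with a pseudocount of 1, 46 with no filter, 334 with the filter at the 60th percentile, 389 with median centring (357 higher and 32 lower, against 135 and 54), 124 with quantile normalization, 3 with the replicate block, 309 with trend and robust and 14 with the Gapdh covariate. Leaving out 1 more rat gave 51 to 262. The 2 members called with 13 arrays became 0 with no filter, with the replicate block or with the Gapdh covariate, 4 after median centring and 1 with quantile normalization (Pfkfb3) or with the mean over probe sets (Eno1); leaving out 1 more rat gave 0 to 2. With the replicate block, a pairing the labels do not give, Pfkfb3 had 0.58 and Eno1 0.50 (limma adjusted p = 0.185 and 0.2). With no filter they kept 0.63 and 0.48 (limma adjusted p = 0.0603 and 0.0962). Pfkfb3 passed in 16 and Eno1 in 10 of 24 alternatives with 13 arrays, each positive in all 24.

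Signs turned only for members near 0, the cause of which was not tested. With 15 arrays Slc2a1 turned to 0.0486 under median centring and 0.0173 under array weights, and ran from -0.141 to 0.0180 over the rats left out (positive without obese rat 3). Hk1 turned to -0.0175 under array weights and -0.202 under the mean over probe sets, and ran from -0.0525 to 0.0711 over the rats left out (negative without obese rat 1, at -0.00357, obese rat 3 or lean rat 2, at -0.0230). Pfkl ran from -0.0053 to 0.247, negative without obese rat 3. With 13 arrays Slc2a1 turned to 0.0227 under median centring. Hk1 turned to -0.0192 under array weights, -0.000363 under the Gapdh covariate and -0.179 under the mean over probe sets, and ran from -0.0709 to 0.0774 over the rats left out (negative without obese rat 3 or lean rat 2, at -0.0236). Hk2 ran from -0.0323 to 0.172, negative without obese rat 3. Hk2 and Pfkl were not tested with the filter at the 60th percentile, since both fell below it.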
